A study of Mus musculus with 16 samples.

Results

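The phagocyte NADPH oxidase was followed through 6 of its genes, Cybb, Cyba, Ncf1, Ncf4, Rac1 and Rac2, chosen by symbol from the 47069 genes of the count table, and all 6 were found. The RNA came from bone marrow-derived macrophages (BMMs), cells grown from the marrow of C57BL/6 mice of 8 to 10 weeks in L929-conditioned medium, which supplies the macrophage growth factor M-CSF. All cultures were primed overnight with IFNγ at 10 ng/mL and activated for 1 hr with LPS at 100 ng/mL together with immune complexes (ICs) of ovalbumin and rabbit IgG. One group received DAPT, a gamma-secretase inhibitor (GSI), at 25 μM before activation, and the other the vehicle DMSO at 0.01%. The paper's methods give this treatment as overnight, whereas some of its figure legends give a shorter time. Each group had 2 replicates, each deposited as 4 columns. These were taken as sequencing runs, since they differed by about sampling noise, and summed to 1 library. The samples analysed here include no unstimulated or unprimed cells, so every value describes activated cells. The inhibitor blocks the cleavage of Notch receptors and also that of other gamma-secretase substrates, and the labels do not say whether the replicates came from separate mice or cultures, so the p-values measure the spread between these libraries, which may be technical.

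The oxidase transfers electrons from NADPH across the membrane of the phagosome onto oxygen, and the superoxide formed there is used against engulfed microbes. Its core is flavocytochrome b, made of the catalytic subunit gp91phox (gene Cybb) and of p22phox (gene Cyba), which stabilizes it and offers a docking site. In resting cells the core is silent. On activation, through Fcγ receptors for example, cytosolic subunits, among them p47phox (Ncf1, the organizer) and p40phox (Ncf4, which binds a phagosomal lipid), move to the membrane, together with a GTP-bound Rac GTPase. IFNγ is a classical inducer of the oxidase in macrophages, and loss of any one of several subunits causes chronic granulomatous disease.

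Promoter sequences from RefSeq (GRCm38.p6) were at hand for 3 of the 6 genes, Cybb, Cyba and Ncf1, and not for Ncf4, Rac1 or Rac2. They are shown because the set spans genes that passed the test described further on (Cybb and Cyba) and one that did not (Ncf1). Each line gives the 250 bases before the transcription start, 5′ to 3′ on the strand of the gene, and capitals mark matches on either strand to the letters of an interferon-stimulated response element (GAAA, any 2 bases, and GAAA again). The windows are chrX:9469325-9469574, chr8:122432941-122433190 and chr5:134229626-134229875, all on the minus strand. RefSeq and the GENCODE annotation used for gene bounds can place starts differently: the GENCODE bounds of Cybb reach further upstream, so that its window lies inside them.
Cybb: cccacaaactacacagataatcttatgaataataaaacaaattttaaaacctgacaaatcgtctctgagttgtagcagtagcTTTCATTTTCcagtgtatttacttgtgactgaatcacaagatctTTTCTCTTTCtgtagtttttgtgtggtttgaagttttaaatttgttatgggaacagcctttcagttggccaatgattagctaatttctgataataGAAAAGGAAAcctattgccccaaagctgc
Cyba: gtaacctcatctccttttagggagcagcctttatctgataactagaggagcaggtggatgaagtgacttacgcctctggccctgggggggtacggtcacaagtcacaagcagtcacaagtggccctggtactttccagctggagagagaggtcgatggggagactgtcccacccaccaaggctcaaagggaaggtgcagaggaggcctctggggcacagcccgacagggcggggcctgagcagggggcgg
Ncf1: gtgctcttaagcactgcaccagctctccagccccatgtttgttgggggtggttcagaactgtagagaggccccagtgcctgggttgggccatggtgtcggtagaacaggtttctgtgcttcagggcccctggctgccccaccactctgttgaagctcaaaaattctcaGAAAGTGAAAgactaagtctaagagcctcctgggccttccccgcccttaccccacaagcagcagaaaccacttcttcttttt

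The Cybb window held 3 such matches, beginning 168, 124 and 29 bases before the start, and the Ncf1 window held 1, beginning at 82 bases, while the Cyba window held none. Of 32841 RefSeq promoter windows of the same length, 2.98% held at least 1 match. TGGGAA, the core letters bound by the Notch effector RBPJ, occurred once in the Cybb window, at 77 bases, and not in the others, against 21.6% of all windows. TTCNNNGAA, the letters of an IFNγ-activated site, occurred once in the Ncf1 window, at 88 bases and sharing 3 bases with the response element, against 7.02% of all windows. GAGGAA, a core bound by PU.1, and TGACNNNGC, letters of an antioxidant response element, were not found in the 3 windows and occurred in 23.3% and 10.2% of all windows. These matches describe letters only and are not evidence of binding.

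The 4 libraries held 42694655 to 56932059 counts, and a gene with no count in a library may thus have been present at up to 0.0527 to 0.0703 CPM (counts scaled to a common library total), the worth of 3 counts. The 6 genes were far above this limit. Their lowest count, 6474 for Ncf4 in DMSO replicate 1, has an exact 95% Poisson interval reaching 2.42% below and 2.47% above it, which covers counting error only, whereas the DMSO replicates of Ncf4 differed by 13.1% of their mean. Of 9 macrophage markers all were detected, and their summed level was lower with GSI, at 9559 and 10481 CPM against 12362 and 12570 CPM with DMSO. By gene, with those named here chosen after their values were seen, 7 of the 9 fell, 1 rose and 1 was not called (88.9% called, where 21.9% of all tested genes fell and 19.0% rose). Csf1r, the M-CSF receptor, fell from 2191 and 2391 CPM to 1407 and 1706 CPM, whereas Mertk, a receptor for the uptake of dead cells, rose from 49.0 and 45.5 CPM to 77.8 and 69.0 CPM, and Cd68 was not called (log2 fold change 0.18). Neutrophils and their precursors carry the same oxidase, but their 11 markers summed to between 0.976 and 1.66 CPM in every library, with Elane, Prtn3 and Retnlg at 0 counts throughout. Markers of dendritic cells (3.77 to 5.44 CPM) and of stroma and vessels (1.53 to 3.01 CPM) were low, those of T and NK cells, through Lck, were 1.04 and 1.19 CPM with DMSO and 2.17 and 2.77 CPM with GSI, those of B cells stayed at or under 0.538 CPM and those of mast cells and eosinophils at or under 0.0465 CPM, and 6 erythroid markers were at 0. The part of these marker differences, of either sign, in the changes described here was not tested. In bulk RNA, fewer cells of a type and less RNA per cell cannot be told apart.

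The mRNAs of both subunits of the membrane-bound core were higher with GSI. The counts hold no measure of protein or superoxide. Cyba, encoding p22phox (ENSMUSG00000006519, chromosome 8 of GRCm38 from 122424776 to 122432930, minus strand), was measured at 408 and 411 CPM in the DMSO libraries and at 659 and 720 CPM in the GSI libraries. The groups were far apart: the lower GSI library exceeded the higher DMSO library by much more than either pair of replicates differed. The log2 fold change was 0.75 (SE 0.0738, edgeR quasi-likelihood FDR = 8.36e-08), a 1.69-fold increase, and it stayed between 0.69 and 0.82 when each library was left out in turn.

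Cybb, encoding gp91phox (ENSMUSG00000015340, chromosome X from 9435252 to 9487771, minus strand), had 1514 and 1453 CPM with DMSO and 1723 and 1782 CPM with GSI. Both GSI libraries lay above both DMSO libraries, but the increase was smaller than that of its partner, 1.18-fold. Its log2 fold change was 0.24 (SE 0.0734, FDR = 0.0126 from the same test, 95% interval 0.09 to 0.39). The call was lost without DMSO replicate 2, where the log2 fold change was 0.21 with an FDR of 0.123.

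Because Cyba rose more than Cybb, the ratio of the 2 mRNAs shifted. Per exon base, Cyba stood at 1.51 and 1.58 times Cybb in the DMSO libraries and at 2.14 and 2.26 times in the GSI libraries. The GSI ratios were both above the DMSO ratios, and their mean was 1.43 times that with DMSO (exact permutation test, two-sided, p = 0.333, the smallest that 2 against 2 libraries allow). The 95% intervals of the separate changes of Cyba (0.60 to 0.91) and Cybb did not overlap.

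**Figure D1:**
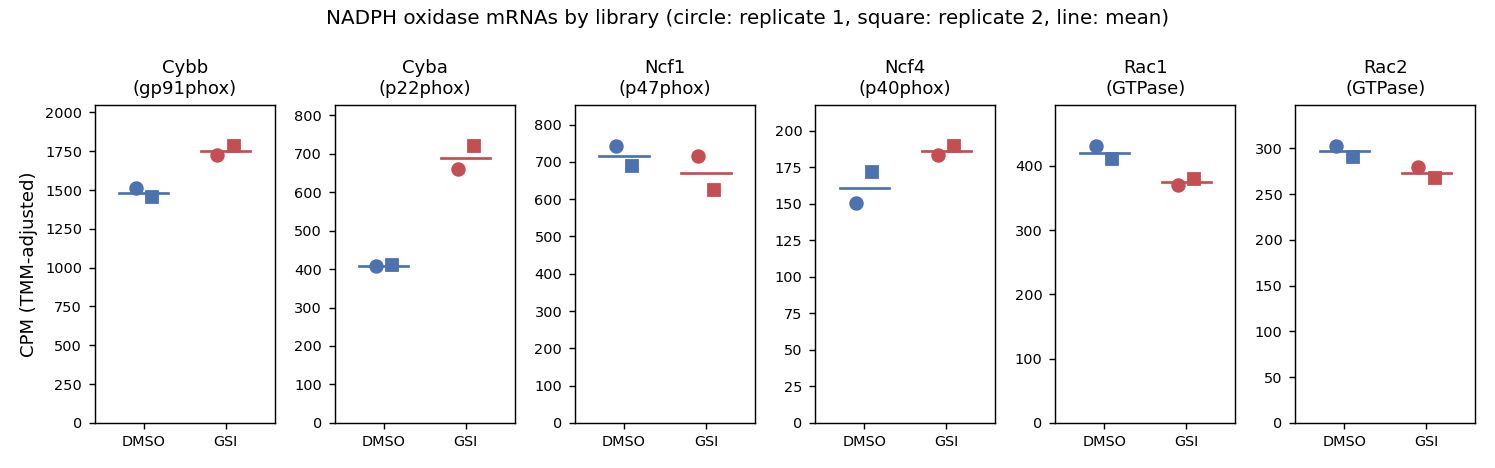
TMM-adjusted CPM (vertical axes, from 0, a scale for each gene) of the 6 oxidase genes in the DMSO and GSI libraries, with a circle for replicate 1, a square for replicate 2 and a line at the group mean. Cyba separates most, with 408 and 411 CPM against 659 and 720 CPM, whereas the Ncf1 libraries overlap.

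Of the cytosolic subunits, Ncf4 passed the test and Ncf1 did not. Ncf4, encoding p40phox (ENSMUSG00000071715, chromosome 15 from 78244801 to 78262580, plus strand), had 150 and 172 CPM with DMSO and 183 and 190 CPM with GSI. The groups did not overlap, though the gap between them was narrower than the gap between the DMSO replicates. The log2 fold change of 0.21 (SE 0.0747, FDR = 0.0292 from the same test) depended on single libraries: it was 0.12 with an FDR of 0.393 without DMSO replicate 1 and 0.19 with an FDR of 0.0668 without GSI replicate 2.

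Ncf1, encoding p47phox (ENSMUSG00000015950, chromosome 5 from 134220053 to 134229625, minus strand), had 742 and 690 CPM with DMSO and 716 and 624 CPM with GSI. The groups overlapped, and no change was detected (log2 fold change -0.10, 95% interval -0.26 to 0.07, FDR = 0.362 from the same test). That interval leaves room for a moderate decrease but not for an increase of the size seen in Cyba. Without GSI replicate 2 the value was 0.0019, so that even its sign was not fixed.

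Per exon base, Ncf4 stood at 0.368 and 0.451 times Ncf1 in the DMSO libraries and at 0.464 and 0.551 times in the GSI libraries. The groups did not overlap, though they nearly met, and the mean ratio with GSI was 1.24 times that with DMSO (exact permutation test, two-sided, p = 0.333, again the smallest possible).

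Both small GTPases had a lower mean with GSI, but neither passed the test. Rac1, expressed in most cell types (ENSMUSG00000001847, chromosome 5 from 143503634 to 143528036, minus strand), had 431 and 410 CPM with DMSO and 370 and 380 CPM with GSI. Its groups did not overlap, but its log2 fold change of -0.17 (SE 0.0705, FDR = 0.0676 from the same test) missed the threshold, and its unadjusted p was 0.0298. This call changed with the fit: the FDR was 0.0446 with DESeq2 at a log2 fold change of -0.17, and 0.0316 in edgeR with the replicate number as a block.

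Rac2, largely restricted to blood cells (ENSMUSG00000033220, chromosome 15 from 78559167 to 78572783, minus strand), had 302 and 291 CPM with DMSO and 279 and 267 CPM with GSI, again without overlap. Its log2 fold change was -0.12 (95% interval -0.27 to 0.03, FDR = 0.181 from the same test). The balance of the pair was even: per exon base Rac2 made up 50.4% and 50.7% of Rac1 plus Rac2 with DMSO and 52.2% and 50.5% with GSI, and the groups overlapped (exact permutation test, two-sided, p = 0.667).

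Rac1 and Ncf1 share exon bases with a gene on the other strand, and both of those genes fell. Daglb, which shares 2309 exon bases with Rac1, had 2039 and 2809 counts with DMSO and 1140 and 1301 with GSI, or 110 and 121 against 63.7 and 69.4 per 1000 counts of Rac1 (log2 fold change -0.96, FDR = 8.49e-09 from the same test). Gtf2ird2, which shares 408 exon bases with Ncf1, had between 292 and 463 counts, or 9.07 to 11.8 per 1000 counts of Ncf1 (log2 fold change -0.38, FDR = 0.00927 from edgeR). The other 4 genes share no exon bases with another annotated gene. The part of reads on the wrong strand in the values of Rac1 and Ncf1 was not tested.

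Counted together, 3 of the 6 genes rose and none fell at an FDR under 0.05, where 40.8% of the 13211 tested genes were called, 19.0% as higher and 21.9% as lower. Among the 1945 genes averaging at least 100 CPM, as the 6 genes do, 52.6% were called, so that a share of 3 in 6 lies near the background. Groups did not overlap for 5 of the 6 genes, against 70.6% of all tested genes. Of these, 3 were higher with GSI (35.8% of tested genes) and 2 lower (34.8%). The median log2 fold change of the 6 genes was 0.06, and that of all tested genes was 0.01. In absolute size the medians were 0.19 and 0.24. None of the 6 reached an absolute log2 fold change of 1.5, the cut-off used in the study, which 2.91% of tested genes passed together with the FDR. Only Cyba of the 6 kept its call in all 4 fits that left out 1 library.

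**Figure D2:**
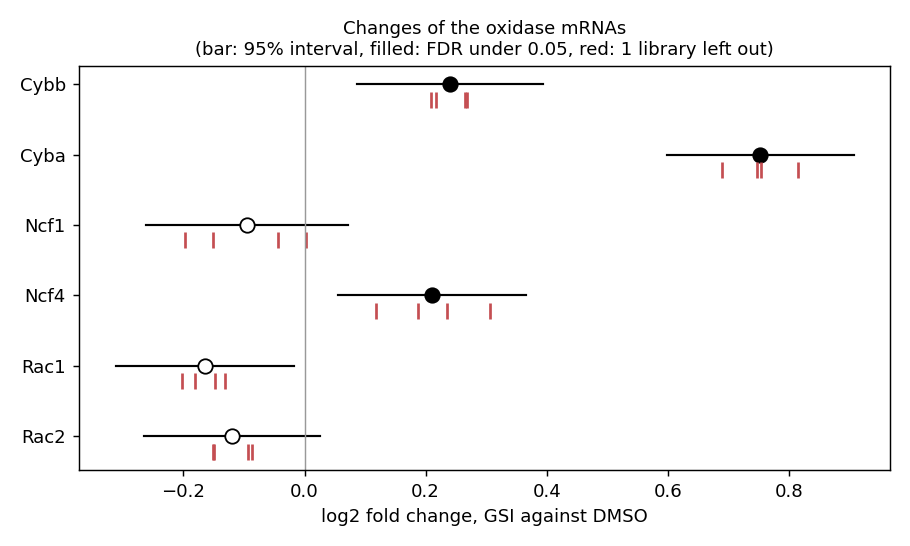
Log2 fold change of each oxidase gene (horizontal axis, GSI against DMSO, grey line at 0) with its 95% interval, filled where the FDR is under 0.05, and in red the 4 values with 1 library left out. Cyba lies at 0.75, apart from all others, and the red marks of Ncf1 reach 0.

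Levels between genes were compared per length, as CPM divided by the kilobases of merged exons (RPKM). In the DMSO libraries Cyba was highest (394 ± 1.86 RPKM, SD, n = 2), followed by Cybb (255 ± 7.43 RPKM, SD, n = 2) and Ncf1 (195 ± 10.1 RPKM, SD, n = 2). Rac2 (95.6 ± 2.57 RPKM, SD, n = 2), Rac1 (93.5 ± 3.24 RPKM, SD, n = 2) and Ncf4 (79.7 ± 7.38 RPKM, SD, n = 2) came next. The 2 Rac genes did not differ beyond their spread. With GSI the order at the top was the same, with Cyba at 664 ± 41.1 RPKM, Cybb at 302 ± 7.21 RPKM and Ncf1 at 183 ± 17.8 RPKM (SD, n = 2 each). Of the next 3, Ncf4 moved above the Rac genes, with Ncf4 at 92.3 ± 2.20 RPKM, Rac2 at 88.0 ± 2.71 RPKM and Rac1 at 83.4 ± 1.44 RPKM (SD, n = 2 each). In GSI replicate 1, Ncf4 and Rac2 were close, at 90.7 and 89.9 RPKM. Among the 13172 tested genes with a length, the mean RPKM over all 4 libraries ranked Cyba at 80, Cybb at 172 and Ncf1 at 279, while Rac2, Rac1 and Ncf4 ranked at 564, 588 and 596.

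The length used changed the order of the lower genes. The merged exons of Cyba span 1039 bases against 744 in its longest principal transcript, those of Ncf4 2020 against 1464, and those of Rac2 3103 against 3038. With principal transcripts, a choice made after the data were seen, Cyba, Cybb and Ncf1 kept their order in every library. Ncf4 then lay above Rac1 and Rac2 in DMSO replicate 2, at 117 RPKM against 98.6 and 95.8 RPKM, and was within 1 RPKM of Rac1 in DMSO replicate 1, at 103 against 104 RPKM.

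**Figure D3:**
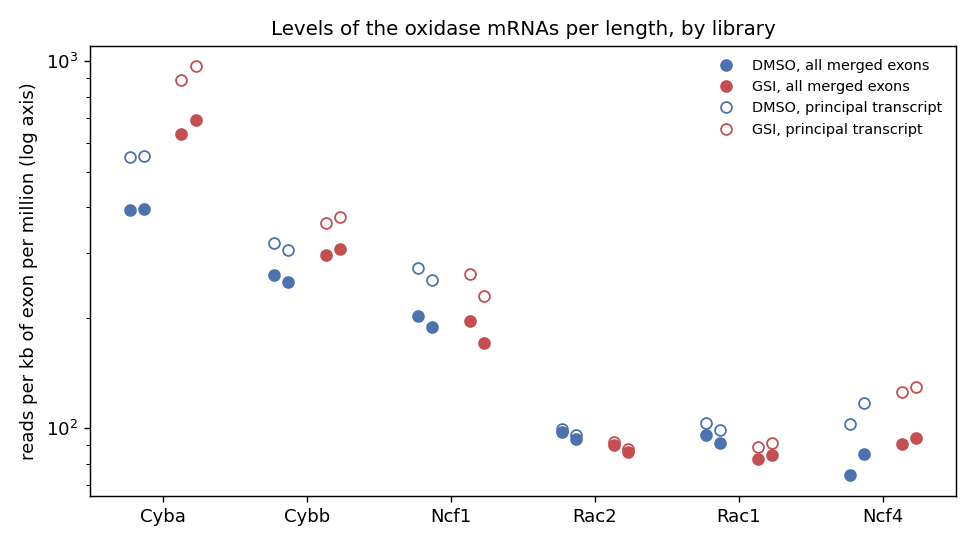
RPKM (vertical log axis) of the 6 oxidase genes in each DMSO library (blue) and GSI library (red), with filled circles for merged exons and open circles for the longest principal transcript. Cyba, Cybb and Ncf1 stand above the other 3 genes under both lengths.

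The genes with the most similar profile over the 4 libraries were sought among 7575 genes averaging at least 10 CPM, by the root mean square difference of log2 CPM centred on each gene's own mean. With 4 libraries such likeness is a description. Nearest to Cyba were Aldh18a1 and Yars, at differences of 0.0164 and 0.0289, with log2 fold changes of 0.75 and 0.81. Aldh18a1 makes a precursor of proline, and Yars is the tyrosyl-tRNA synthetase. Nearest to Cybb were Zfp260 (0.00406) and Mzt1 (0.00855), and nearest to Ncf4 were Hnrnpa0 (0.00575) and Wash1 (0.00879). Nearest to Ncf1 were Csf1 (0.00469), which encodes M-CSF, and Ift46 (0.00709). Rac1 was nearest to Tbc1d2b (0.000763) and Serinc1 (0.00543), and Rac2 to C1qa (0.00147), a chain of complement C1q, and Gpkow (0.00441).

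Of 8 genes whose products bind, assemble or accompany the oxidase, all were tested, and 3 rose and 2 fell (62.5% called, against 40.8% of all tested genes called), with a median log2 fold change of -0.04. Hvcn1, the voltage-gated proton channel that carries protons out as the oxidase moves electrons, had 20.3 and 20.9 CPM with DMSO and 40.7 and 42.1 CPM with GSI, a log2 fold change of 1.01 (FDR = 3.19e-09 from edgeR's quasi-likelihood test). This was a 2.01-fold increase. Its 1574 exon bases shared with Tctn1 on the other strand lie across from a gene with 292 to 425 counts, against 872 to 2077 counts of Hvcn1. Hmox1, heme oxygenase, which breaks down heme, the cofactor of gp91phox, rose from 119 and 139 CPM to 265 and 244 CPM, a log2 fold change of 0.98. Sh3pxd2a, a scaffold related to p47phox that serves other NADPH oxidases, fell from 17.5 and 16.1 CPM to 9.33 and 8.91 CPM, a log2 fold change of -0.88.

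A pair of these 8 genes, which control the abundance of gp91phox protein, were looked up after their values were seen. The 3 of the 8 that were not called, also named after their values were seen, were Canx (log2 fold change 0.07), Rubcn (-0.18) and Sh3pxd2b (-0.16). Cybc1 (Eros), needed for stable flavocytochrome, had 67.5 and 70.0 CPM with DMSO and 76.4 and 89.4 CPM with GSI (log2 fold change 0.27, FDR = 0.00937 from the same test). Nrros, which promotes the degradation of gp91phox, had 395 and 400 CPM with DMSO and 272 and 327 CPM with GSI (log2 fold change -0.41, FDR = 0.000395 from the same test). In Cybc1 and Nrros the GSI libraries lay apart from the DMSO libraries, as they did, in either direction, for 70.6% of all tested genes. For Cybc1 the gap between the groups was narrower than the gap between its GSI replicates.

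Of 10 genes of other NADPH oxidases, 7 were at or near the limit of detection: Nox3, Nox4 and Duox1 had 0 counts in every library, Duox2, Duoxa1, Duoxa2 and Noxa1 had at most 1 count. The remaining 3 passed the filter on low counts. Nox1, a catalytic subunit known from colon epithelium, had 4.65 and 3.81 CPM with DMSO and 4.61 and 4.37 CPM with GSI. Noxo1, a p47phox relative that shares 2122 exon bases with Tbl3 on the other strand, was between 0.931 and 1.73 CPM, and Rac3, the remaining Rac GTPase, between 0.910 and 1.69 CPM. Nox1, with 200 to 223 counts, likewise shares 399 exon bases with Cstf2 on the other strand, which had 1160 to 1438 counts, and Tbl3 had 845 to 1243 counts against 46 to 98 of Noxo1. Whether the counts of Nox1 and Noxo1 came from these genes was not tested. None of the 3 was called (FDR = 0.610, 0.207 and 0.0791 from the same test), where 40.8% of all tested genes were. The call of Rac3 changed with the fit: its FDR was 0.0484 in edgeR with the replicate number as a block.

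Among 16 exchange factors and partners that load Rac with GTP, 1 rose and 10 fell, with a median log2 fold change of -0.36. Tiam1 had 40.3 and 38.8 CPM with DMSO and 22.7 and 19.7 CPM with GSI (log2 fold change -0.90). Dock5 had 60.2 and 58.7 CPM with DMSO and 33.2 and 37.2 CPM with GSI (-0.75), and Arhgef6 177 and 164 CPM with DMSO and 101 and 104 CPM with GSI (-0.73). The gene that rose, named after its values were seen, was Vav1, an exchange factor activated below Fcγ receptors, with 195 and 208 CPM against 275 and 266 CPM (log2 fold change 0.43, FDR = 5.96e-05 from the same test).

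Of 11 genes that restrain or chaperone Rac, 2 rose and 7 fell, with a median of -0.23. Chn2, a GTPase-activating protein, changed most of them, from 17.5 and 16.7 CPM to 5.01 and 5.79 CPM (log2 fold change -1.66, FDR = 2.18e-10 from the same test). Racgap1, which also acts in cytokinesis, had 28.1 and 25.8 CPM with DMSO and 16.3 and 17.5 CPM with GSI, and Arhgap15 had 127 and 123 CPM with DMSO and 80.8 and 90.3 CPM with GSI. The shares called, 11 of 16 activators and 9 of 11 inhibitors, stand beside 40.8% of all tested genes, of which 21.9% fell and 19.0% rose.

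Of 15 tested kinases and related enzymes that act on the cytosolic subunits or just upstream, 2 rose and 6 fell (53.3% called, against 40.8% of all tested genes called), with a median log2 fold change of -0.15. Pak1, a Rac effector kinase, had 140 and 133 CPM with DMSO and 89.6 and 92.3 CPM with GSI (log2 fold change -0.58). Irak4, a kinase below Toll-like receptors, had 37.4 and 34.6 CPM with DMSO and 28.5 and 25.4 CPM with GSI (-0.42), and Prkcb, a protein kinase C, 43.1 and 39.7 CPM with DMSO and 31.8 and 32.7 CPM with GSI (-0.36). Irak4, with 1254 to 1964 counts, shares 395 exon bases with Twf1 on the other strand, which had 4504 to 6201 counts, and the part of such reads in its value was not tested.

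Of 14 genes that set the phosphoinositides bound by p47phox and p40phox, or that act as phospholipases, none rose and 7 fell (50% called, against 40.8% of all tested genes called), with a median of -0.20. Inpp5d, the lipid phosphatase SHIP1, had 308 and 325 CPM with DMSO and 208 and 225 CPM with GSI (log2 fold change -0.55). Plcg2, a phospholipase C, had 259 CPM in both DMSO libraries and 188 and 187 CPM with GSI (-0.46), and Pik3cg, a PI3-kinase, 21.9 and 23.0 CPM with DMSO and 13.4 and 15.5 CPM with GSI (-0.63).

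Of 10 genes that supply NADPH, 4 rose and 1 fell (50% called, against 40.8% of all tested genes called), with a median log2 fold change of 0.07. Pgd, of the pentose phosphate pathway, had 301 and 318 CPM with DMSO and 389 and 370 CPM with GSI (log2 fold change 0.29), and Pgls, of the same pathway, 35.4 and 38.1 CPM with DMSO and 48.1 and 46.96 CPM with GSI (0.37). Pgls, with 1524 to 2323 counts, shares 776 exon bases with Fam129c on the same strand, which had 23 to 37 counts. The part of reads from the shared bases in the value of Pgls was not tested. Me1, malic enzyme, was low, with 5.07 and 3.98 CPM against 7.86 and 8.26 CPM (0.84).

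Of 13 tested enzymes and channels that handle superoxide and hydrogen peroxide, 8 rose and 2 fell (76.9% called, against 40.8% of all tested genes called, 19.0% as higher), with a median log2 fold change of 0.32. Prdx1, an abundant peroxiredoxin, had 886 and 907 CPM with DMSO and 2214 and 2395 CPM with GSI (log2 fold change 1.36, FDR = 3.80e-11 from the same test). Prdx5 had 711 and 827 CPM with DMSO and 1473 and 1470 CPM with GSI (0.94), and it shares 409 exon bases with Trmt112 on the other strand, which had 1126 to 1478 counts. Aqp9, an aquaglyceroporin that can pass peroxide, had 1.35 and 1.199 CPM with DMSO and 6.93 and 7.86 CPM with GSI (2.54). The 2 that fell, named after their values were seen, were Gpx1, a glutathione peroxidase (-0.45), and Txnrd1, a thioredoxin reductase (-0.28). Mpo, the myeloperoxidase of neutrophils, also named after its values were seen, had at most 2 counts.

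Of 14 tested regulators linked to genes of the oxidase, all transcription factors except Cdkn1a, a cell cycle inhibitor, none rose and 5 fell (35.7% called, against 40.8% of all tested genes called), with a median of -0.09. Nfkb1, an NF-κB subunit, had 301 and 320 CPM with DMSO and 226 and 232 CPM with GSI (log2 fold change -0.44), Runx1 81.1 and 79.0 CPM with DMSO and 63.8 and 59.1 CPM with GSI (-0.38), and Irf2 133 and 124 CPM with DMSO and 108 and 85.1 CPM with GSI (-0.41). The value of Irf2 rested partly on GSI replicate 2, without which it was -0.25 and still called. Spi1, which encodes PU.1 and was named after its values were seen, had 363 and 371 CPM with DMSO and 373 and 358 CPM with GSI, so that its groups overlapped (log2 fold change -0.01, FDR = 0.957 from the same test).

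**Figure D4:**
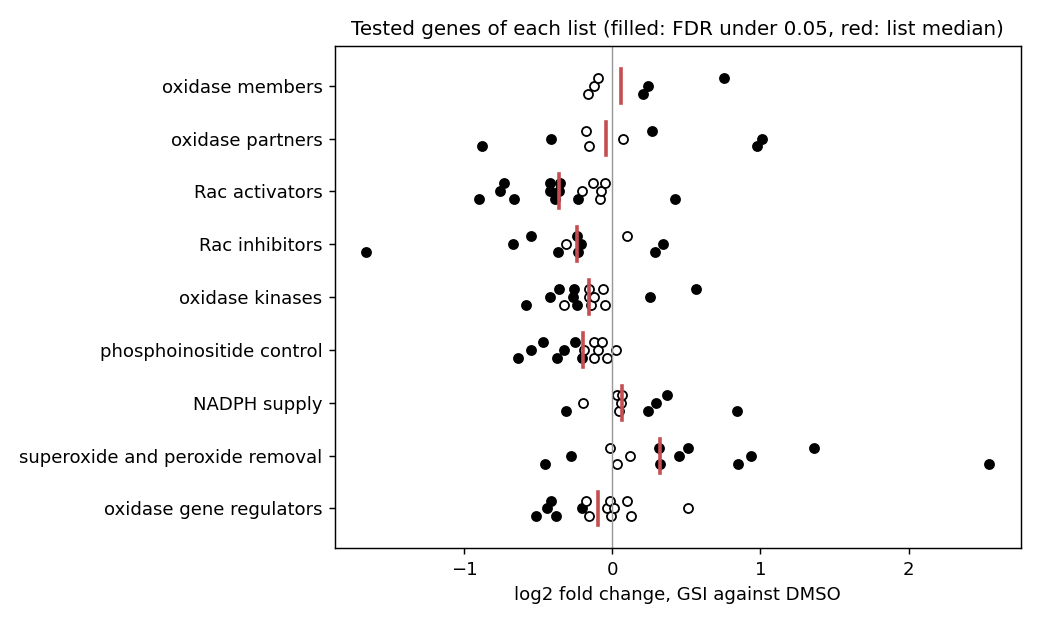
Log2 fold change (horizontal axis, GSI against DMSO) of each tested gene in the 6 oxidase genes and 8 lists of related genes (the other NADPH oxidases, with 3 tested genes, are not drawn), with filled circles for an FDR under 0.05 and a red bar at the list median. Medians of the lists drawn run from -0.36 for Rac activators to 0.32 for superoxide and peroxide removal.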

How the data were processed

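RNA-seq counts of BMMs activated with LPS/ICs were analysed for 2 DMSO and 2 GSI libraries. The authors made TruSeq stranded poly(A) libraries, sequenced them on a NextSeq, trimmed adapters with Trimmomatic, aligned to mm10 with STAR (version 2.5.0a per the submitters' processing notes, which also list mm9) and used HTSeq for counting. The values, as deposited, are raw counts per Ensembl gene and run. HTSeq's mode and strand setting are not given in the sources used here.

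The labels do not define the last number of a title, which was taken as the run. Runs of 1 replicate agreed within sampling noise and were summed (chi-square per degree of freedom 1.01 to 1.03, against 14.7 and 16.6 between replicates). The main test was edgeR 4.0.16 (R 4.3.3) quasi-likelihood with TMM, its default low-count filter and Benjamini-Hochberg adjustment (FDR, threshold 0.05) over 13211 genes. Standard errors are the log2 fold change over the square root of F. The test draws the variance of each gene towards that of the other genes (median prior degrees of freedom 17.8). The SE, interval and p-value of a gene thus rest largely on the spread of other genes. CPM used TMM-adjusted library sizes, and RPKM used merged exons of GENCODE M21 (GRCm38). The scripts were tested on simulated data. DESeq2 1.42.0, limma 3.58.1 (voom), RLE or no factors, 2 other filters, a block for the replicate number, the 16 runs taken as samples and leaving out each library were alternatives.

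The genes named were the 6 members, the 3 genes with the smallest p in each of 9 lists and the 2 nearest profiles per member. Genes outside this rule are marked where named, except genes that overlap another, genes at 0 or at most 1 count, Lck and Cdkn1a, which were also named after their values were seen. The members and lists were chosen with earlier results of these data known. One list entry, an older name of Irf8, had no row. Cybc1 stands in the table as BC017643. One further gene is not reported here.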

Additional observations from a re-analysis of the deposited data

How the results depend on the processing

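Of 72 values for the 6 genes under 12 alternatives, 63 kept their direction and their side of the threshold. Rac1 passed the threshold with DESeq2 (log2 fold change -0.17, FDR = 0.0446) and with the replicate number as a block (-0.16). With the 16 runs as separate samples, which treats runs as replicates, Ncf1 (-0.092), Rac1 (-0.16) and Rac2 (-0.12) passed it, so that all 6 genes were called, where 7582 of 11179 tested genes were called, 3896 of them higher, and the counts were 1 for other NADPH oxidases, 13 for kinases, 11 for phosphoinositide genes, 9 for NADPH supply and 8 for gene regulators. The fit on runs entered a larger number of samples, and the cause of these differences was not tested.

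Leaving out 1 library, with the lone library of a group assumed to vary like the others, moved the log2 fold change of Cybb between 0.21 and 0.27, of Cyba between 0.69 and 0.82, of Ncf1 between -0.20 and 0.0019 (positive without GSI replicate 2), of Ncf4 between 0.12 and 0.31, of Rac1 between -0.20 and -0.13 and of Rac2 between -0.15 and -0.09. Cybb lost its call without DMSO replicate 2 and Ncf4 without DMSO replicate 1 or GSI replicate 2, so that 2 to 3 of the 6 were called, in fits that called 4162 (of 13574, without DMSO replicate 1) to 4978 (of 13626, without GSI replicate 1) of all tested genes. Nox1, not called, ran from -0.052 to 0.24 and was negative without DMSO replicate 2. Called genes numbered 0 to 1 of the other NADPH oxidases and 5 to 7 of the kinases. The Rac2 share differed by -0.068 to 1.63 percentage points, GSI minus DMSO, and was negative without GSI replicate 1.

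Libraries with the same replicate number deviated together only weakly (correlation 0.155 over 13211 genes), and 2 pairs do not establish a pairing. The block raised the genes called from 5392 to 6444, added Rac1 and, among other NADPH oxidases, 1 gene (Rac3, -0.50), and left the calls of the other 5 genes as they were.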
